A study of Mus musculus with 6 samples.

Results

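Interferon-stimulated genes are the genes that cells switch on when an interferon reaches its receptor. The 40 genes described here were taken by name from the table of gene levels of the series, which has 21307 rows. They were grouped by role into 7 transcription factors, 7 sensors of RNA, 8 genes of ubiquitin and ubiquitin-like modification, 12 antiviral effectors and 6 further target genes. All 40 names were found, each in a row of its own, and all 40 had values above 0 in both conditions. The guanylate-binding and immunity-related GTPase genes of the same response are not among them, although Mx1 and Mx2, which are, encode GTPases related to dynamin.

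The cells were B cells from the bone marrow of pre-tumoral mice 6 to 8 weeks old, on a C57BL/6 x 129S1/SvlmJ background, grown with interleukin 7 at 5 ng/µl. Every library carries the genotype label E-mu-myc;Prmt5F/FCreER, so the controls share the Eµ-myc transgene, which drives MYC from an immunoglobulin enhancer, the conditional Prmt5 alleles and the inducible Cre. The first group was given 50 nM 4-hydroxytamoxifen (4-OHT) for 24 h to delete Prmt5, an arginine methyltransferase gene, and the second was given ethanol; both were then washed and cultured for 5 more days (3 libraries each). The titles call the 4-OHT libraries PT and the ethanol libraries WT, and the series' design text names wild-type and pre-tumoral mice. The same libraries fall together either way, but the meaning of the contrast would differ. Here the groups follow the treatment given for each sample, which names 4-OHT or ethanol. No cells without Cre given 4-OHT are among the samples used here, so an effect of 4-OHT or Cre itself cannot be told apart from the loss of Prmt5.

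The deposited table gives 1 value per gene and condition, in FPKM (mapped fragments scaled to transcript length and to the size of the library), so no value has an error, no difference has a replicate check, and no test was made. Because of the length scaling, levels of different genes can be set side by side. Differences are given as the log2 ratio of 4-OHT over ethanol after adding 1 FPKM to both values, which understates the change of low genes. Folds use that same pseudocount, except those credited to the authors' deposited table. A gene entered the comparison with nonzero values in 4-OHT and ethanol that averaged 1 FPKM or more, as 10856 rows and 37 of the 40 genes did. Depth is unknown, because the table holds no counts.

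Prmt5 stood at 5.71 FPKM in 4-OHT and 41.6 FPKM in ethanol. The cells of both conditions had B-lineage transcripts, with Cd79b at 147 FPKM in 4-OHT and 256 FPKM in ethanol and Vpreb3 at 242 and 509 FPKM in the same order. Markers of other cell types were present as well and are given below. In 4-OHT the 9 neutrophil markers summed to 3488 FPKM and the 12 B-lineage markers to 842 FPKM. In ethanol these sums were 403 FPKM and 1875 FPKM. In bulk RNA, fewer cells of a type and less RNA per cell cannot be told apart, and this holds for every gene below.

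Type I interferons signal through the receptor chains IFNAR1 and IFNAR2 and the kinases JAK1 and TYK2, which lead to phosphorylation of STAT2. With IRF9, STAT2 is part of a complex that binds a DNA element, the interferon-stimulated response element (ISRE), in front of the target genes. Interferon gamma uses another receptor, and its response acts through a GAS element. Many target genes also have a low tonic level in resting immune cells, and several, the Ifitm genes among them, are known to be expressed without added interferon.

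Promoter windows of these genes were searched for both elements, and the matches to the ISRE in 5 genes are shown so that the letters can be read beside the levels. They come from the transcription factors, sensors and effectors, and are those of the genes with the highest mean level among the ones in each of these roles that hold the longer form described next. RefSeq windows of 300 bases on GRCm38.p6, from 250 before the annotated start, were at hand for 32 of the 40 genes. The ISRE core was spelled GAAANNGAA, its longer form was the same core followed directly by AC, and GAS was spelled TTCNNNGAA. Both strands were searched, every longer form contains a core, and a GAS match can overlap a core. The longer form is in capitals below, in the direction of transcription, so that a match on the other strand reads as its reverse complement. The build differs from that of the table of levels, and the 2 sets of coordinates are not comparable.

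Stat2 (transcription factor), chr10:128270248-128270295, plus strand, from 250 bases before the start.
Stat2: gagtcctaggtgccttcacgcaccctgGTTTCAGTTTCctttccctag

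Eif2ak2 (sensor), chr17:78882543-78882584, minus strand, from 12 bases before the start.
Eif2ak2: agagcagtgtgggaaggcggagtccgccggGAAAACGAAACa

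Ddx58 (sensor), chr4:40239804-40239854, minus strand, from 29 bases before the start.
Ddx58: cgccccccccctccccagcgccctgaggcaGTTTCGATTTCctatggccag

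Ifitm3 (effector), chr7:141010715-141010772, minus strand, from 28 bases before the start.
Ifitm3: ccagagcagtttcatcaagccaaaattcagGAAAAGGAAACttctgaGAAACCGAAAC

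Bst2 (effector), chr8:71537582-71537632, minus strand, from 160 bases before the start.
Bst2: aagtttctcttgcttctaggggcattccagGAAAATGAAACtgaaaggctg

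The longer ISRE was found in the windows of 11 of 32 genes (34.4%), against 0.944% of the 27025 genes in the promoter table. These were Stat2, Ifih1, Ddx58, Eif2ak2, Oas1a, Isg15, Trim30a, Ifit1, Ifit3, Ifitm3 and Bst2. The core was found in 17 of 32 (53.1%, against 9.76% of all genes) and GAS in 9 of 32 (28.1%, against 9.55%). Isg15, Ifit1, Ifit3 and Ifitm3 each held more than 1 longer match in a single window. The pair in Ifitm3 began 2 and 19 bases after the annotated start, whereas the pair in Isg15 began 78 and 72 bases before it and overlapped. A match is a run of letters and not a measured binding site.

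**Figure D1:**
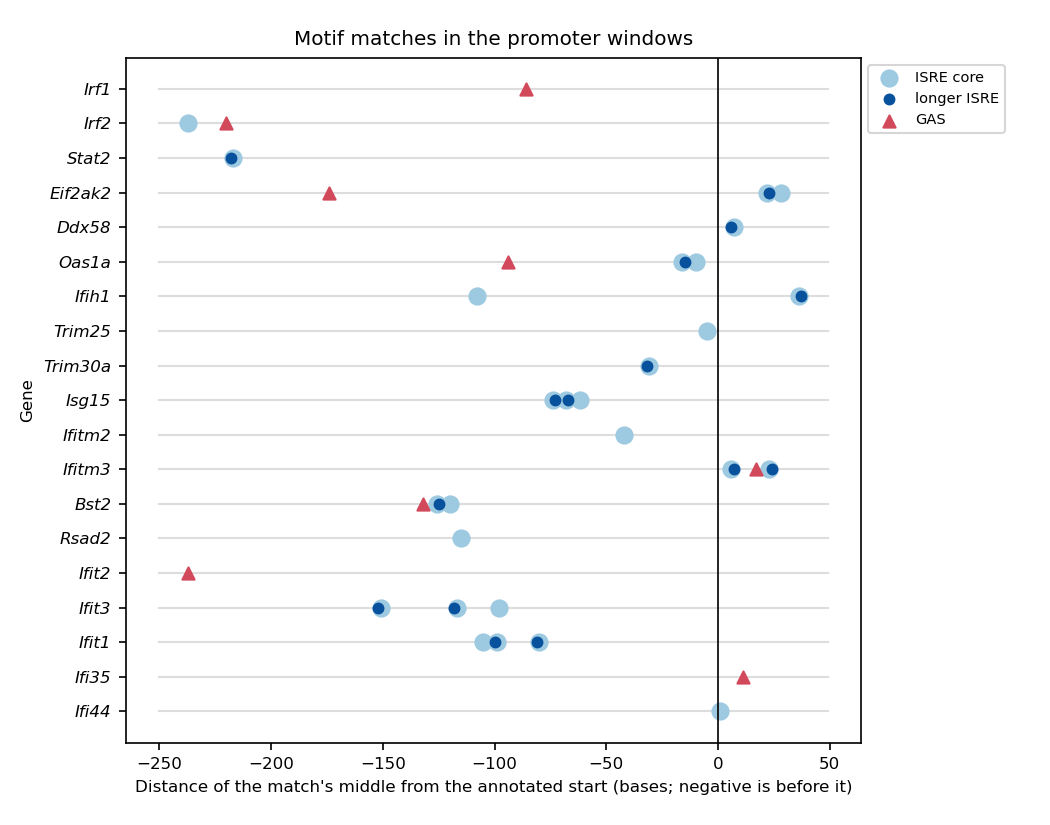
Matches to the ISRE core, the longer ISRE and GAS, drawn at the middle of each match by distance in bases from the annotated start (horizontal axis), in the first promoter window of each gene that holds any; each grey line is a window of 300 bases. The longer ISRE lies within 250 bases before the start in Stat2 and Bst2 and just after it in Ifitm3, Ddx58, Eif2ak2 and Ifih1; Adar, whose matches lie in another of its windows, is not drawn.

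Most of these genes had a higher level in 4-OHT, by less than 2-fold. Of the 37 compared, 31 were higher (83.8%; 44.9% of all compared genes were) and 6 were lower. At least 1.5-fold higher were 17 (45.9%; the background was 19.5%), and at least 2-fold higher were 4 (the background was 10.4%). None was at least 1.5-fold lower (background 12.8%) or 2-fold lower (background 2.58%). The median log2 ratio was 0.54, beside -0.07 over all compared genes. Ifit1, Mx1 and Usp18 were below 1 FPKM in ethanol and were compared only because of their 4-OHT value. Without any minimum, 34 of all 40 were higher (53.1% of all genes were), with a median of 0.52 beside 0.01 over the 15756 rows above 0 in both conditions. Just past 1.5-fold was Ifit3, at a log2 ratio of 0.59, and just short of it were Irf5 (0.56) and Xaf1 (0.54).

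**Figure D2:**
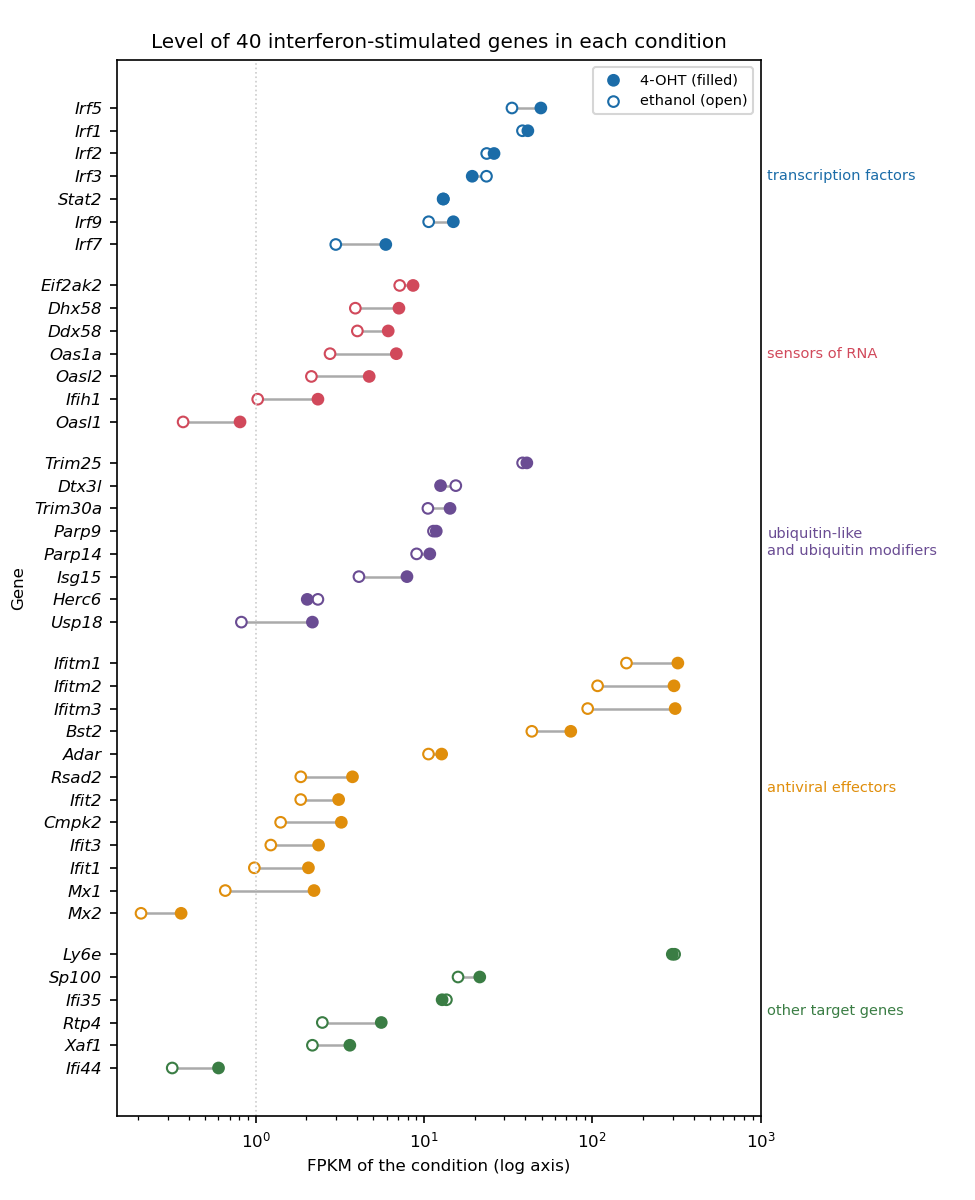
FPKM of the 40 genes (log axis) in 4-OHT (filled) and ethanol (open), 1 value per condition, by role and in order of mean level; the dotted line marks 1 FPKM. The filled point lies right of the open one in 34 genes, and the 3 Ifitm genes and Ly6e stand above the rest.

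The Ifitm genes, whose small membrane proteins block the entry of viruses, stood highest in level together with Ly6e, and Ifitm3 and Ifitm2 had the highest ratios of the 40. Ifitm3 (chr7:148195489-148196643, mm9) stood at 311 FPKM in 4-OHT and 94.0 FPKM in ethanol, 3.29-fold higher. Ifitm2 (chr7:148140738-148141860) stood at 306 FPKM in 4-OHT and 108 FPKM in ethanol, 2.83-fold higher. Ifitm1 (chr7:148153328-148155726) stood at 323 FPKM in 4-OHT and 159.8 FPKM in ethanol, 2.01-fold higher. In 4-OHT the 3 neighbouring genes were thus close to one another in level, whereas in ethanol Ifitm1 was well above the others. Of all compared genes, 2.35% had a ratio as high as that of Ifitm3, 3.54% one as high as that of Ifitm2 and 10.2% one as high as that of Ifitm1. Under quantile normalization Ifitm1 was short of 2-fold, at a log2 ratio of 0.97. The 3 proteins and their transcripts are alike in sequence, and the handling of reads that match several of them is not stated in the sources.

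Ly6e, which encodes a glycolipid-anchored surface protein, was the most abundant of the 40 in ethanol. It stood at 299 FPKM in 4-OHT and 309 FPKM in ethanol, a log2 ratio of -0.05 that was slightly above 0 under median-of-ratios scaling. The 40 genes summed to 1697 FPKM in 4-OHT and 1027 FPKM in ethanol. The Ifitm genes made up 55.4% of that sum in 4-OHT and 35.2% in ethanol, and Ly6e 17.6% in 4-OHT and 30.1% in ethanol. The other 36 genes summed to 458 FPKM in 4-OHT and 357 FPKM in ethanol.

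Among the other antiviral effectors, Bst2 alone was abundant. Bst2, or tetherin, which holds budding virions at the cell surface, stood at 74.6 FPKM in 4-OHT and 43.8 FPKM in ethanol, 1.69-fold higher. Adar, the editing enzyme that converts adenosine to inosine in double-stranded RNA, stood at 12.7 FPKM in 4-OHT and 10.6 FPKM in ethanol (log2 ratio 0.24). Its locus overlaps that of Chrnb2 in the table. The classical inducible effectors were all below 4 FPKM in both conditions and all higher in 4-OHT.

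Rsad2 (viperin, which makes a chain-terminating nucleotide) and its neighbour Cmpk2 (a mitochondrial nucleotide kinase) lie side by side on chromosome 12. Rsad2 was at 3.76 FPKM in 4-OHT and 1.85 FPKM in ethanol (log2 ratio 0.74). Cmpk2 was at 3.23 FPKM in 4-OHT and 1.41 FPKM in ethanol (0.81). The Ifit genes, whose proteins bind foreign RNA, lie together on chromosome 19. Ifit2 was at 3.11 FPKM in 4-OHT and 1.85 FPKM in ethanol (0.53). Ifit3 was at 2.37 FPKM in 4-OHT and 1.23 FPKM in ethanol (0.59). Ifit1 was at 2.06 FPKM in 4-OHT and 0.982 FPKM in ethanol (0.63). The 3 Ifit ratios were therefore close together, at levels at which 1 FPKM of added pseudocount weighs heavily. In the authors' deposited table, without a pseudocount, the log2 fold changes were 0.75 for Ifit2, 0.94 for Ifit3 and 1.07 for Ifit1. Mx1, which inhibits influenza viruses in mice and is defective in many laboratory strains, was at 2.22 FPKM in 4-OHT and 0.660 FPKM in ethanol (0.96). The authors' deposited table lists 1.75 for it, the largest of the 40. Mx2 was at 0.361 FPKM in 4-OHT and 0.208 FPKM in ethanol and was too low to be compared.

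Sensors of RNA were higher in 4-OHT as a group, from low levels. Each of the 6 compared had a higher value, and 4 passed 1.5-fold, at a median log2 ratio of 0.72. By comparison, 44.9% of all compared genes were higher and 19.5% were at least 1.5-fold higher. The latter share was 29.6% for means of 1 to 5 FPKM and 16.2% for means of 5 to 20 FPKM. Oas1a, an oligoadenylate synthetase that responds to double-stranded RNA, stood at 6.85 FPKM in 4-OHT and 2.77 FPKM in ethanol. It was 2.09-fold higher, past 2-fold with this pseudocount but not under quantile normalization (log2 ratio 0.93). No other gene outside the Ifitm family passed 2-fold with a pseudocount of 1 FPKM. In the authors' deposited table others did, among them Mx1, Usp18, Cmpk2 and Ifih1. Oasl2, of the same family, stood at 4.73 FPKM in 4-OHT and 2.14 FPKM in ethanol (log2 ratio 0.87). Oasl1, known in mice to restrain translation of Irf7, was at 0.808 FPKM in 4-OHT and 0.371 FPKM in ethanol, below the minimum. The Oas genes have close copies, so their values are uncertain in the same way as those of the Ifitm genes.

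Of the RIG-I-like helicases, Dhx58 (LGP2, the modulating member) was at 7.10 FPKM in 4-OHT and 3.91 FPKM in ethanol (0.72). Ddx58 (RIG-I, a sensor of RNA ends) was at 6.13 FPKM in 4-OHT and 4.02 FPKM in ethanol (0.51). Ifih1 (MDA5, a sensor of long double-stranded RNA) was at 2.35 FPKM in 4-OHT and 1.03 FPKM in ethanol (0.72). The authors' deposited table lists 0.86 for Dhx58 and 1.19 for Ifih1, which the pseudocount brings together. Eif2ak2, the kinase PKR that halts translation on binding double-stranded RNA, was the most abundant sensor and had the lowest ratio, at 8.62 FPKM in 4-OHT and 7.18 FPKM in ethanol (0.23).

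The transcription factors differed little, with a median log2 ratio of 0.14 and 1 of 7 at least 1.5-fold higher (14.3%, against 19.5% of all compared genes). That gene was Irf7, the inducible factor that amplifies type I interferon production, at 5.93 FPKM in 4-OHT and 2.99 FPKM in ethanol (0.80). It was also the least abundant of the 7. Irf5, which acts below Toll-like receptors in myeloid cells and B cells, had the highest mean, at 49.5 FPKM in 4-OHT and 33.4 FPKM in ethanol (0.56), although Irf1 was above it in ethanol. Irf9, the DNA-binding partner of STAT2, was at 14.95 FPKM in 4-OHT and 10.7 FPKM in ethanol (0.45). Stat2 was at 13.0 FPKM in 4-OHT and 13.1 FPKM in ethanol (-0.01, and above 0 under both scaling alternatives). These partners were thus not alike, with Irf9 higher and Stat2 near equal. Irf1, induced by interferon gamma, was at 41.5 FPKM in 4-OHT and 38.5 FPKM in ethanol (0.10). Irf2, which competes with Irf1 for its sites, was at 26.1 FPKM in 4-OHT and 23.6 FPKM in ethanol (0.14). Irf3, the constitutive factor activated by phosphorylation below the sensors, was lower, at 19.4 FPKM in 4-OHT and 23.5 FPKM in ethanol (-0.27).

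**Figure D3:**
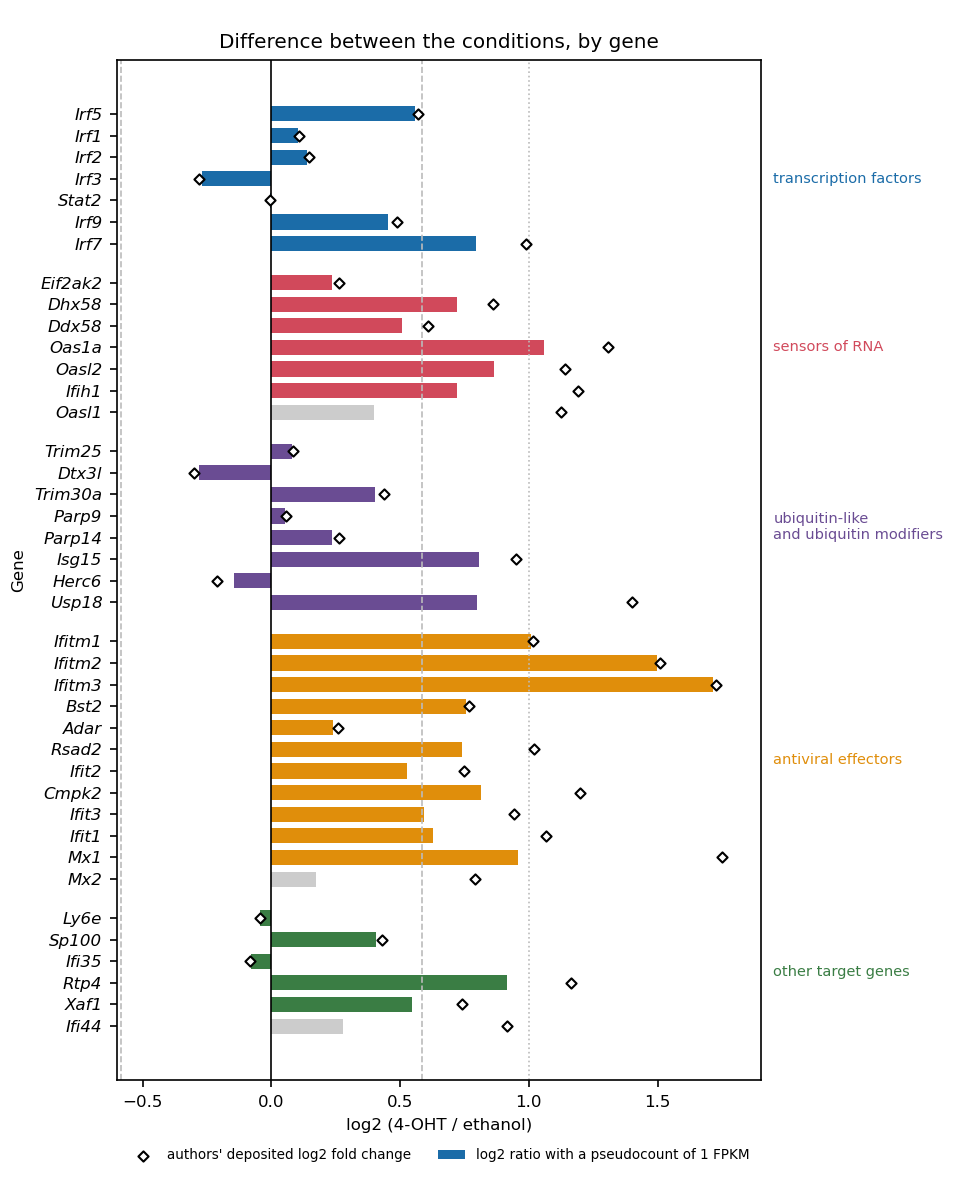
Log2 ratio of 4-OHT over ethanol for each gene with a pseudocount of 1 FPKM (bars; grey for the 3 genes below the minimum) and the authors' deposited log2 fold change (diamonds). Dashed lines mark 1.5-fold and the dotted line 2-fold. Sensors and antiviral effectors all lie right of 0, most transcription factors and modifiers lie short of 1.5-fold, and the diamonds depart from the bars where levels are low, as for Mx1 and Usp18.

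Genes of ubiquitin and ubiquitin-like modification differed among themselves. Isg15, the ubiquitin-like protein of the pathway, stood at 7.93 FPKM in 4-OHT and 4.11 FPKM in ethanol (log2 ratio 0.81). Usp18, which removes ISG15 and also restrains the receptor, stood at 2.17 FPKM in 4-OHT and 0.823 FPKM in ethanol (0.80). Herc6, the mouse ligase that attaches ISG15, was in contrast lower, at 2.03 FPKM in 4-OHT and 2.34 FPKM in ethanol (-0.14). Trim30a, a TRIM-family regulator with close copies beside it on chromosome 7, was at 14.3 FPKM in 4-OHT and 10.6 FPKM in ethanol (0.40). Trim25, the ligase that modifies RIG-I, was at 40.9 FPKM in 4-OHT and 38.6 FPKM in ethanol (0.08). Parp14, an ADP-ribosyltransferase, was at 10.8 FPKM in 4-OHT and 9.05 FPKM in ethanol (0.24). Its neighbours Parp9 and Dtx3l encode partner proteins and share 1 locus in the table (chr16:35926601-35972691, mm9), so reads in their overlap may have been divided between them. Parp9 was at 11.8 FPKM in 4-OHT and 11.4 FPKM in ethanol (0.05), and Dtx3l had the lowest ratio of the 40, at 12.5 FPKM in 4-OHT and 15.5 FPKM in ethanol (-0.28).

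Of the further target genes, Rtp4, which encodes a receptor-transporting protein, had the highest ratio, at 5.58 FPKM in 4-OHT and 2.49 FPKM in ethanol (log2 ratio 0.91). Xaf1, a binding partner of the apoptosis inhibitor XIAP, was at 3.63 FPKM in 4-OHT and 2.17 FPKM in ethanol (0.54). Sp100, a component of PML nuclear bodies, was at 21.5 FPKM in 4-OHT and 15.9 FPKM in ethanol (0.41). Ifi35 was at 12.8 FPKM in 4-OHT and 13.6 FPKM in ethanol (-0.08). Ifi44 was at 0.602 FPKM in 4-OHT and 0.319 FPKM in ethanol and was not compared. No further target gene reached 2-fold on either side with a pseudocount of 1 FPKM. In the authors' deposited table Rtp4 did, at a log2 fold change of 1.16.

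The ratios also differed by level. Among the 14 with a mean of 1 to 5 FPKM, 13 were higher and 11 at least 1.5-fold (78.6%, against 29.6% of the 2727 compared genes at that level), with a median log2 ratio of 0.77. Ifit1, Mx1 and Usp18 are among these 11. They were below 1 FPKM in ethanol and passed the minimum only through their 4-OHT value, which raises the share in this range. Among the 13 with a mean of 5 to 20 FPKM, 10 were higher and 2 at least 1.5-fold (15.4%, against 16.2% of 4566 genes), with a median of 0.24. Among the 6 from 20 to 100 FPKM, 5 were higher and 1, Bst2, was at least 1.5-fold (16.7%, against 15.01% of 3004 genes), with a median of 0.12. The 4 above 100 FPKM were the Ifitm genes, all at least 1.5-fold higher, and Ly6e (3 of 4, against 22.4% of 559 genes), with a median of 1.25, the highest of the 4 ranges. With a minimum of 5 FPKM the median of the remaining 23 genes was 0.24, below that of the 37. The count past 2-fold depends on the pseudocount in the same way: it was 4 of 37 with 1 FPKM and 12 of 37 in the authors' deposited table, where 14.1% of all compared genes were at least 2-fold higher. Quantile normalization took Cmpk2, Ifih1, Ifit1, Ifit3, Rsad2 and Usp18 below 1.5-fold, with log2 ratios from 0.30 for Ifit3 to 0.54 for Cmpk2.

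**Figure D4:**
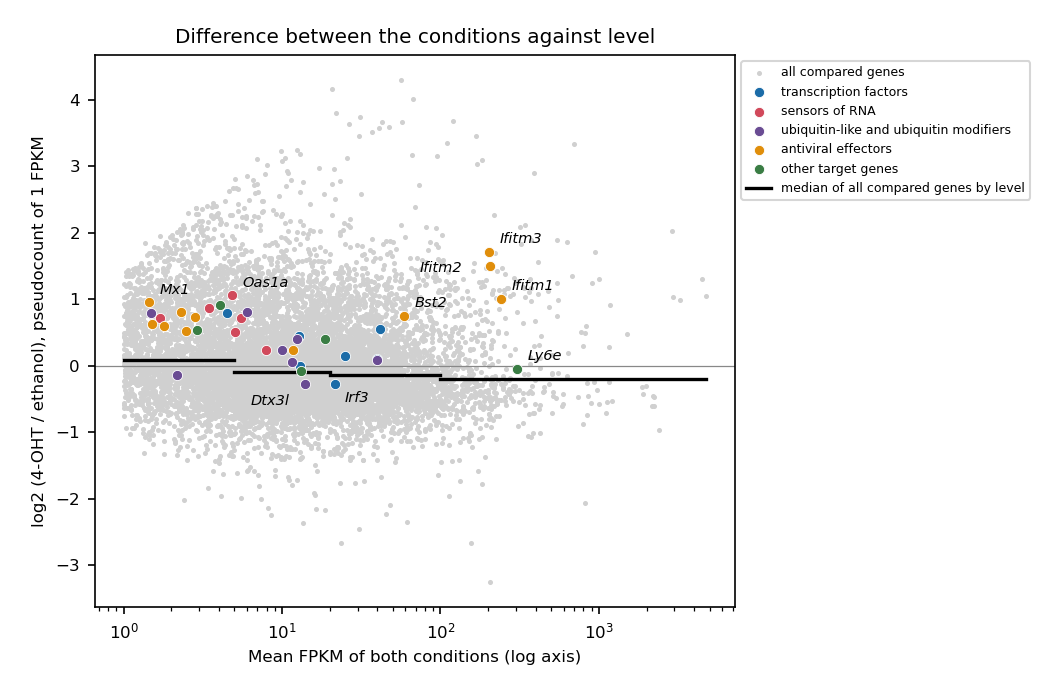
Log2 ratio of 4-OHT over ethanol against the mean FPKM of both conditions (log axis) for all 10856 compared genes (grey) and the 37 compared interferon-stimulated genes (coloured by role); black lines are the medians of all compared genes from 1, 5, 20 and 100 FPKM up. The 3 Ifitm genes and those with a mean below 5 FPKM, Herc6 excepted, lie above the black lines, and most genes from 5 to 100 FPKM lie nearer to them.

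The genes with a longer ISRE in their window did not all have high ratios. The 11 had log2 ratios from -0.01 for Stat2 to 1.72 for Ifitm3, with a median of 0.63 and 7 at least 1.5-fold higher. The 19 compared genes with a window but no longer ISRE ran from -0.28 for Dtx3l to that of Ifitm2, 2.83-fold, with a median of 0.45 and 6 at least 1.5-fold higher. Eif2ak2 and Ddx58, printed above, held the element and were short of 1.5-fold. These are descriptions of 2 overlapping ranges, and no test was made. The share at least 1.5-fold higher over all compared genes was 19.5%.

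The rest of the pathway was read from a list of genes that are not among the 40. All 12 interferon genes that were looked up were in the table, at or near 0: the highest value of any was 0.0372 FPKM in 4-OHT and 0.0242 FPKM in ethanol, for Ifng. Ifnb1 was at 0.0104 FPKM in 4-OHT and listed at 0 in ethanol. Receptor genes were expressed, and all 5 compared were higher in 4-OHT, 3 of them at least 1.5-fold (median log2 ratio 0.62). Ifngr1, a chain of the interferon gamma receptor, stood at 78.1 FPKM in 4-OHT and 54.9 FPKM in ethanol. Il10rb, a chain shared with interferon lambda, stood at 65.0 FPKM in 4-OHT and 36.0 FPKM in ethanol. Ifnar2 had the highest ratio of the receptors, at 59.1 FPKM in 4-OHT and 32.4 FPKM in ethanol (0.85), and Ifnar1 the lowest, at 15.2 FPKM in 4-OHT and 11.5 FPKM in ethanol (0.38).

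The receptor kinase genes Jak1 and Jak2 were each at least 1.5-fold higher in 4-OHT. Jak1 stood at 51.3 FPKM in 4-OHT and 32.4 FPKM in ethanol, and Jak2 at 22.5 FPKM in 4-OHT and 12.8 FPKM in ethanol. Tyk2 was at 12.8 FPKM in 4-OHT and 10.03 FPKM in ethanol (0.32). Of 11 compared genes of nucleic acid sensing and its adaptors, 6 were higher and 5 lower, with 4 at least 1.5-fold higher. The kinase gene Ikbke had the highest ratio there (1.01) and the DNA sensor gene Aim2 the lowest (-0.53). The most abundant were Tmem173 (STING), at 28.3 FPKM in 4-OHT and 35.8 FPKM in ethanol, and the adaptor gene Myd88, at 34.7 FPKM in 4-OHT and 17.8 FPKM in ethanol. Both genes of the ISG15 conjugation enzymes were higher, with Ube2l6 at a log2 ratio of 0.75 and Uba7 at 0.38.

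Negative regulators were found on both sides. Ptpn6, the phosphatase SHP-1, was at 104 FPKM in 4-OHT and 39.1 FPKM in ethanol (1.39), and Samhd1, a dNTP hydrolase, at 55.1 FPKM in 4-OHT and 28.2 FPKM in ethanol (0.94). Socs1, the feedback inhibitor of JAK kinases, was at 12.9 FPKM in 4-OHT and 31.4 FPKM in ethanol (-1.22). Of the other IRF genes, Irf8 was at 49.2 FPKM in 4-OHT and 48.8 FPKM in ethanol (0.01), and Irf4 was at 25.9 FPKM in 4-OHT and 44.3 FPKM in ethanol (-0.75). Irf2bp2, which encodes a protein that binds IRF2 and is not itself an IRF gene, had a ratio of 0.32. Of 33 further interferon target genes that were compared, 24 were higher, 15 of them at least 1.5-fold and 5 at least 2-fold, and none was at least 1.5-fold lower (median 0.52). Lgals9 was the most abundant, at 189 FPKM in 4-OHT and 231 FPKM in ethanol, and Slfn2 was at 100.4 FPKM in 4-OHT and 48.5 FPKM in ethanol. Lgals3bp had the highest ratio (1.38) and Nlrc5 the lowest (-0.53). Over all pathway lists, 47 of 67 compared genes were higher and 28 (41.8%) were at least 1.5-fold higher, close to the 45.9% of the genes described here. Of all compared genes, 44.9% were higher, 19.5% at least 1.5-fold higher and 10.4% at least 2-fold higher. At least 1.5-fold lower were 12.8%, and at least 2-fold lower were 2.58%. These shares are the background of each pathway list and of the markers below.

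Marker genes of neutrophils, of monocytes and macrophages and of stromal and endothelial cells were also higher in 4-OHT, with median log2 ratios of 3.10, 1.02 and 3.55. All 9 compared neutrophil markers were at least 2-fold higher, summing to 3488 FPKM in 4-OHT and 403 FPKM in ethanol. Of 12 monocyte and macrophage markers compared, 11 were at least 1.5-fold and 7 at least 2-fold higher, summing to 1601 FPKM in 4-OHT and 740.5 FPKM in ethanol without Lyz2, which is listed at 0 in 4-OHT and at 3835 FPKM in ethanol. All 12 stromal and endothelial markers were at least 2-fold higher, summing to 721 FPKM in 4-OHT and 59.5 FPKM in ethanol. B-lineage markers were lower in 12 of 12, 7 of them at least 2-fold, and summed to 842 FPKM in 4-OHT and 1875 FPKM in ethanol. Of the T and NK cell markers, 6 of 10 were compared and all 6 were higher, and the 10 summed to 45.7 FPKM in 4-OHT and 17.1 FPKM in ethanol. Siglech, a defining marker of plasmacytoid dendritic cells, which are strong interferon producers, was near 0, at 0.0997 FPKM in 4-OHT and 0.110 FPKM in ethanol. In that list 2 of 5 compared markers were higher, and its 8 genes summed to 204 FPKM in 4-OHT and 322 FPKM in ethanol. Most of that sum was 1 gene, Cox6a2, at 123 FPKM in 4-OHT and 235 FPKM in ethanol. The part of these other cells in the levels of the interferon-stimulated genes was not tested.

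**Figure D5:**
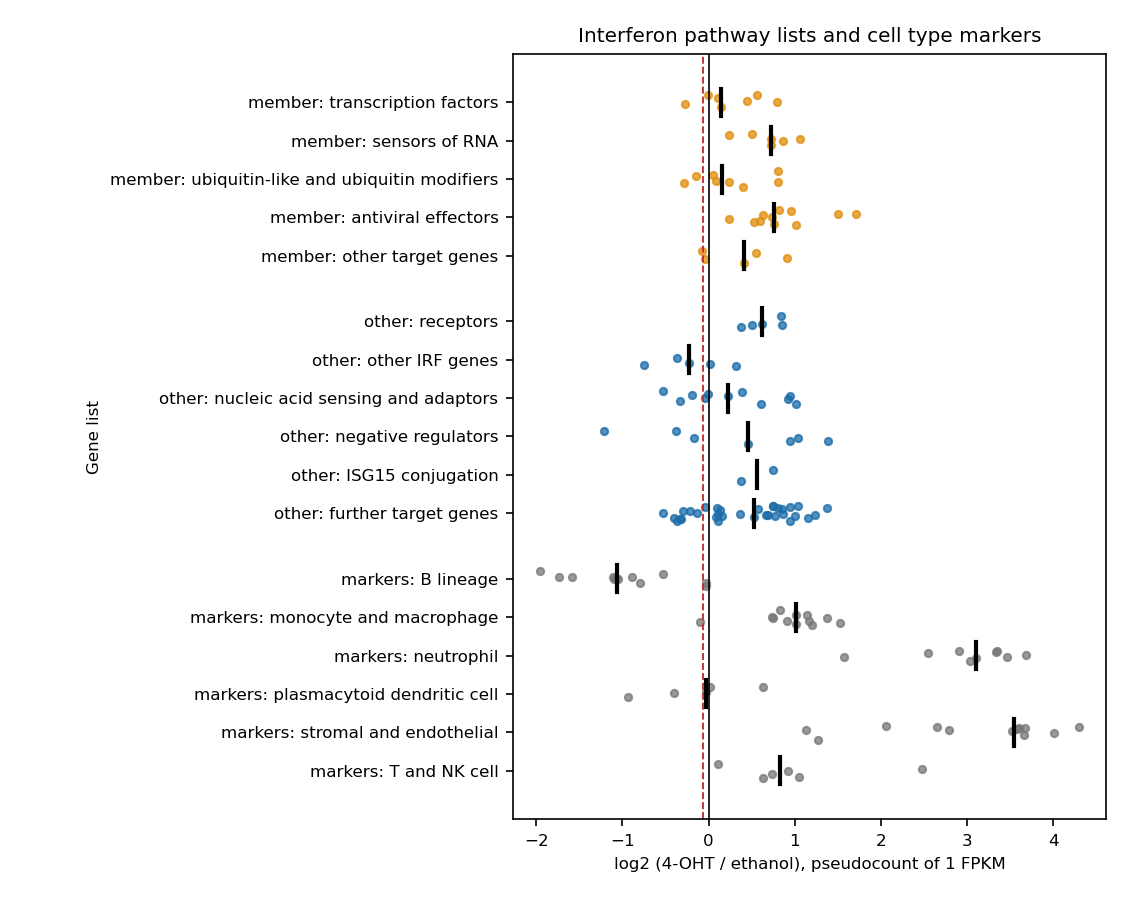
Log2 ratio of 4-OHT over ethanol for each compared gene (points) by list: roles of the 40 genes (orange), other genes of the pathway (blue) and cell type markers (grey); black bars are list medians and the dashed red line is the median of all compared genes (-0.07). Sensors (0.72), effectors (0.76) and receptors (0.62) lie right of 0, between the B-lineage markers (-1.06) and the neutrophil (3.10) and stromal (3.55) markers; Lyz2 and other genes not compared, and the list with the receptor kinases, are not drawn.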

How the data were processed

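The deposited table holds, for each gene, 1 FPKM value per condition computed by the authors. Cufflinks 2.1.1, TopHat2 2.0.9, CASAVA and the build mm9 are named in the submitters' processing notes. The sources used here do not state how the 3 libraries of a condition were combined or whether the conditions were scaled to one another. The authors' deposited log2 fold changes equal the log2 of the value in 4-OHT over that in ethanol, with no pseudocount, within 0.01 in all 15756 rows above 0 in both conditions.

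The 40 genes, the other gene lists and the thresholds of 1.5-fold and 2-fold were chosen with earlier results of these data known. Genes were matched by exact name, and other lists also by RefSeq synonyms (GRCm38.p6). The ratio, its pseudocount of 1 FPKM and the minimum mean of 1 FPKM are described with the results, and the ratio was tested on simulated data. The planned fit with limma, for values per library, could not be made. Non-members were named as the 2 with the highest mean and the extremes of a list, or the 2 most abundant markers, or are said to be chosen otherwise. Lyz2 and Siglech were chosen after their values were seen. Ifnb1, Prmt5 and Chrnb2 were named outside these rules. Every one of the 40 genes is given. Starts in the table were taken as counted from 0, so 1 was added. Of 18851 rows matched by name, locus lengths equalled RefSeq gene lengths in 6341 that way and in 437 if counted from 1. The remaining rows, which are most of them, equalled these lengths in neither way. Figures were drawn with matplotlib 3.10.9, and values were computed with pandas 2.3.3 and numpy 2.4.6 in Python 3.11.15. No protein sequences were used here. Some genes of the pathway lists are counted in list totals and not reported here by name.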

Additional observations from a re-analysis of the deposited data

How the results depend on the processing

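The direction of the 17 genes at least 1.5-fold higher was kept under all settings tried that included them, and 11 of the 17 stayed past 1.5-fold in each. Stat2 and Ly6e, both near 0, lay on both sides of it. The median log2 ratio, 0.54, was 0.71 with a pseudocount of 0.1 FPKM, 0.74 with the authors' deposited fold changes, 0.24 with a minimum mean of 5 FPKM (23 genes left), 0.41 under quantile normalization and 0.41 without the Ifit, Ifitm, Oas, Mx and Trim30 families (27 genes left). The count at least 2-fold higher, 4, was 10 with a pseudocount of 0.1 FPKM, 7 with 0.5 FPKM, 12 with the authors' deposited fold changes, 2 under quantile normalization, 0 without those families and 1 without the Ifitm genes, a setting added after seeing the data. Over all 10856 compared genes, the same count, 1124 (10.4%), was 1499 with 0.1 FPKM and 1334 with 0.5 FPKM. It was 1536 (14.1%) with the authors' deposited fold changes and 967 under quantile normalization. For the settings without those families or without the Ifitm genes, the background was kept at 1124 and was not computed anew. At least 1.5-fold higher, the 17 genes became 6 with a minimum mean of 5 FPKM and 9 without those families. Over all compared genes, the count at least 2-fold lower, 280, was 457 with a pseudocount of 0.1 FPKM and 482 with the authors' deposited fold changes; with a minimum mean of 5 FPKM, where fewer genes were compared (8129), 1314 were at least 1.5-fold and 700 at least 2-fold higher, against 2121 and 1124. Median-of-ratios scaling was computed on the compared rows. No paired analysis was possible because each condition has only 1 pooled value in the table, so the replicate block and leaving out each library were not run. Low values carry the least precision, and how much cannot be stated without counts.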

Other observations

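The oligoadenylate synthetase genes beside Oas1a, chosen after their values were seen, were not alike. Oas2 was at 2.80 FPKM in 4-OHT and 1.26 FPKM in ethanol (log2 ratio 0.75), and Oas3 at 2.71 FPKM in 4-OHT and 1.17 FPKM in ethanol (0.77). Oas1b was near equal, at 3.16 FPKM in 4-OHT and 2.91 FPKM in ethanol, and Oas1c was at 1.11 FPKM in 4-OHT and 1.46 FPKM in ethanol (-0.22). The copies of the Oas1 family are alike in sequence, and the share of reads that could not be placed between them is unknown. Among other target genes, also chosen after their values were seen, Slfn5 and Slfn2, which encode Schlafen proteins, had log2 ratios of 1.15 and 1.04, Samd9l had 1.24 and Parp12 had 1.01.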
